A study of Mus musculus with 8 samples.

Results

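Keratins are the intermediate filament proteins of epithelial cells, and 10 of their genes were followed here: Krt7, Krt8, Krt18 and Krt19 of simple (luminal) epithelium, Krt5, Krt14 and Krt15 of basal cells, Krt16 and Krt17 of stressed or wounded epithelium, and Krt80. They were chosen by name, with transcripts of the same gene summed, and were 10 of the 22026 genes in the files. The study sequenced RNA of TS/A and 4T1 cells, which are cultured lines from breast tumours of BALB/c mice, in 8 libraries, 2 for each line and vector. Per the sample characteristics, both lines carried either an empty virus vector or one expressing Gpr56 (gene Adgrg1), a collagen III receptor of the adhesion class of G protein-coupled receptors. The cells grew in RPMI with 10% FCS, and the design text gives culture with type III collagen and RNA extraction after 72 h. The titles name the same contrast differently, as Emp_Control against Emp_ColIII, so by the labels the vector and the collagen culture cannot be told apart. Whether replicates were grown as separate cultures is not stated in the labels. The p-values thus rest on the spread between libraries of the same line and vector, which may be technical. That spread is pooled over all groups in a fit.

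A keratin filament is built from pairs of one acidic type I chain and one basic type II chain. A chain without a partner of the other type is usually unstable, so cells tend to make both types together. Luminal cells of the mammary gland are known for KRT8, KRT18 and KRT19, and the basal or myoepithelial layer for KRT5 and KRT14. KRT16 and KRT17 are known for their rise in injured or fast-growing epithelium. In mouse the type II genes lie in a cluster on chromosome 15 and most type I genes in a cluster on chromosome 11. Krt18 is a type I gene that lies on chromosome 15, next to its partner Krt8.

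In GENCODE M21 (GRCm38) the type II members lay at chr15:101411043-101430313 (Krt7), chr15:101996698-102004482 (Krt8), chr15:101707070-101712898 (Krt5) and chr15:101347444-101370162 (Krt80). Krt18 lay at chr15:102028180-102032027. The other type I members lay at chr11:100140810-100148665 (Krt19), chr11:100203162-100207548 (Krt14), chr11:100131758-100135928 (Krt15), chr11:100246091-100248902 (Krt16) and chr11:100256217-100261029 (Krt17). Sequences before the RefSeq starts of Krt7, Krt8 and Krt18 are shown because TS/A had many reads of Krt18 but almost no reads of Krt7 and Krt8. They come from RefSeq (GRCm38.p6), in which 5 of the 10 members were found, run 5′ to 3′ on the gene's own strand and are cut where they meet an exon of the same gene in GENCODE M21. For Krt8 and Krt18 the stretch ends at the GENCODE start of the gene. For Krt7 it lies inside the GENCODE gene, after the starts of shorter transcripts and before that of the main transcript, and ends at an exon of another transcript. Capitals mark CG dinucleotides. The windows are chr15:101412153-101412234 on the plus strand for Krt7, chr15:102004483-102004592 on the minus strand for Krt8 and chr15:102027966-102028179 on the plus strand for Krt18.
Krt7: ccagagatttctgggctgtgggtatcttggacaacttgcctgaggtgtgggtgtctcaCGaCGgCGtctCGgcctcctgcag
Krt8: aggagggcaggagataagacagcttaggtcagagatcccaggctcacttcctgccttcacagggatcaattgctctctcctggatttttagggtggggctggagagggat
Krt18: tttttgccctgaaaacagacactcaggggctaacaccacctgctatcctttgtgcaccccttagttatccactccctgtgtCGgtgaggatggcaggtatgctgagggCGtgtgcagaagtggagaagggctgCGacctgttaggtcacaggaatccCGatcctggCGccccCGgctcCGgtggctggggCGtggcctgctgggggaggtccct

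The printed stretch of Krt8 held 0 CG dinucleotides in 110 bases, that of Krt7 held 4 in 82 bases and that of Krt18 held 8 in 214 bases. Over the full 250 bases before the RefSeq start, the ratio of observed to expected CG was 0.596 for Krt7, 0.527 for Krt18 and 0.143 for Krt8, against a median of 0.374 over 32851 promoter windows of the same length. Krt8 thus ranked at percentile 21.3, Krt18 at 61.3 and Krt7 at 65.8 of those windows. The full windows run past the printed stretches, into the GENCODE gene for Krt8 and Krt18, and that of Krt7 lies wholly inside its gene. In the same windows, searched on both strands, the letters GGGCGG (GC box) were found 4 times in Krt7 and not in Krt8 or Krt18. All 4 lay past the printed stretch of Krt7. Of all windows, 32.74% held at least 1 match. No match to TATAAA, the letters of the TATA box, was in any of the 3 windows, and 12.37% of all windows held one. The AP-1 letters TGANTCA were likewise in none of the 3, and 6.75% of all windows held them. These are matches of letters and were not related to the expression values by any test.

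The libraries held from 10510569 to 25959142 reads. Levels of 1 gene across libraries are given in CPM, reads scaled to library size with TMM factors, as single values or as mean ± SD of 2 libraries, and 3 reads were worth between 0.116 and 0.285 CPM. Levels of different genes within a library are given as the deposited RPKM, reads scaled by transcript length and library size, summed over the transcripts of a gene. Adgrg1 checked the vector labels. In 4T1 it stood at 2.65 ± 0.17 CPM (SD, n = 2) with the empty vector and 95.3 ± 6.78 CPM with the Gpr56 vector. The TS/A levels were 25.6 ± 13.1 CPM with the empty vector and 17.96 ± 6.60 CPM in the libraries labelled Gpr56, with overlapping groups, so those are called by their label throughout. The 2 TS/A empty-vector libraries differed most among replicates, with a median absolute log2 gap over all tested genes of 0.38, against 0.085, 0.12 and 0.15 in the other 3 groups. Results on TS/A are therefore also given without either of them where that changes a call.

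In 4T1 the simple keratins dominated. With the empty vector, Krt8 (type II) was at 347 and 355 RPKM, Krt18 (type I, its partner) at 299 and 288 RPKM, and Krt7 (type II, of ducts and simple epithelia) at 168 and 174 RPKM. Krt19, the small type I keratin of simple epithelia, followed at 41.3 ± 2.05 RPKM (SD, n = 2), Krt80, a type II keratin found in many epithelia, at 38.8 ± 1.22 RPKM and Krt14, the type I keratin of the basal layer, at 25.7 ± 0.10 RPKM. Krt16 was at 2.11 ± 0.35 RPKM and Krt17 at 0.152 ± 0.023 RPKM. No neighbours in this order had overlapping libraries, although Krt19 and Krt80 were only 1.07-fold apart. In 4T1 with the Gpr56 vector the order of these 8 genes was the same, from Krt8 at 440 ± 8.77 RPKM and Krt18 at 401 ± 3.40 RPKM down to Krt17 at 0.259 ± 0.039 RPKM.

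In TS/A the order began with type I genes. With the empty vector, Krt18 was at 103 and 105 RPKM and Krt19 at 19.4 and 25.4 RPKM, followed by Krt80 at 6.55 and 5.59 RPKM. Krt16 was at 1.28 and 1.59 RPKM and Krt14 at 1.13 and 0.918 RPKM. Below them, Krt8 at 0.293 and 0.149 RPKM and Krt7 at 0.261 and 0.0119 RPKM overlapped each other, and the libraries of Krt7 also overlapped those of Krt17. In the TS/A libraries labelled Gpr56, Krt18 stood at 106 and 134 RPKM, Krt19 at 26.7 and 33.3 RPKM and Krt80 at 5.30 and 4.45 RPKM, again in this order without overlap. Krt16 and Krt14 came next and Krt7 and Krt8 were again near the bottom.

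**Figure D1:**
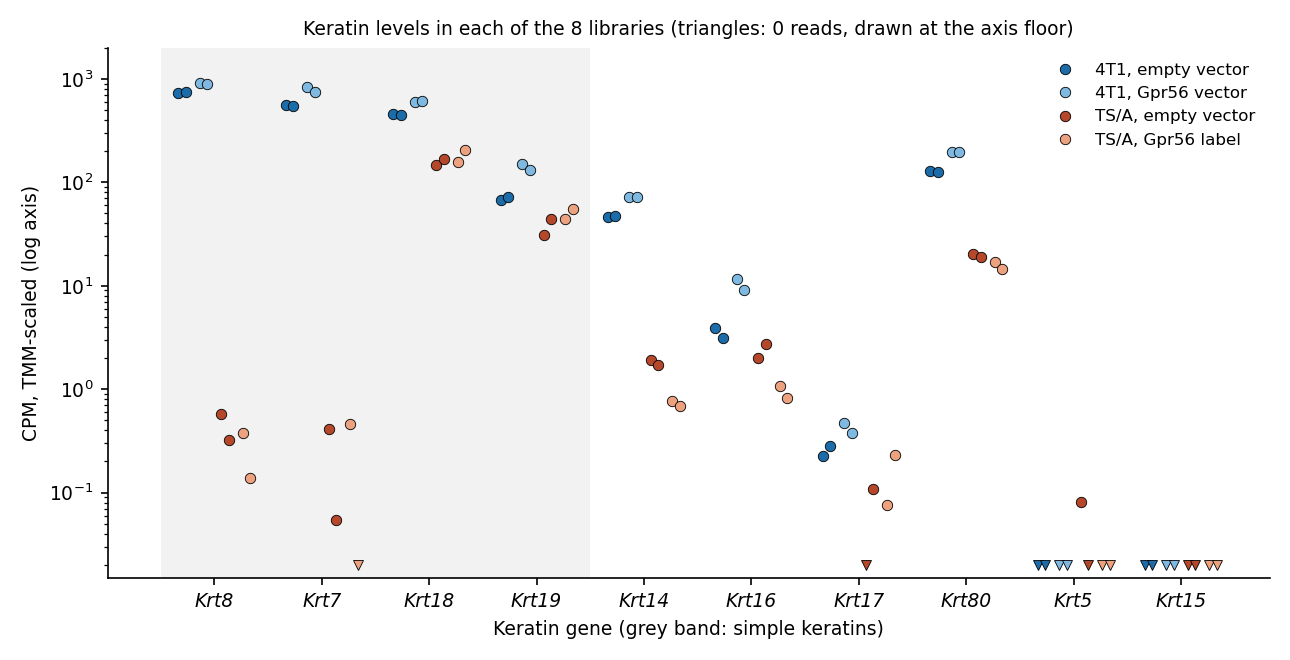
Level of each keratin in each of the 8 libraries, in CPM with 1 point per library, by line and vector label; the axis is logarithmic and triangles at its foot stand for 0 reads. Krt7 and Krt8 stand at 542 CPM or more in each 4T1 library and below 1 CPM in each TS/A library, whereas Krt18 lies between 148 and 605 CPM in all 8.

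Read counts show the same for the type II simple keratins. In 4T1, Krt7 was counted 9832 and 11531 times with the empty vector, and 17708 and 7973 times with the Gpr56 vector. TS/A gave 10 and 1 reads under the empty label and 12 and 0 under the Gpr56 label. Krt8 had 12914, 15962, 19624 and 9452 reads in the 4T1 libraries, in that order, and 14, 6, 10 and 3 in the TS/A libraries. All TS/A values were thus far below all 4T1 values for both genes, and 2 of the 4 Krt7 values in TS/A lay under 3 reads. Krt18 had between 6456 and 12876 reads in 4T1 and between 3109 and 4429 in TS/A, so that the type I partner was well counted in both lines.

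The 2 empty-vector groups were compared with edgeR's quasi-likelihood test with Benjamini-Hochberg adjustment over 11970 genes, of which 47.4% passed the threshold of 0.05 in this comparison and 23.5% were lower in TS/A. Of the 10 keratins, 7 passed the filter on low counts and 6 of these 7 were lower in TS/A. A share of 23.5% of all genes is the background for that count, and the 3 genes that were not tested are described by their reads below. The median log2 fold change of the 7 was -2.71, against 0.01 over all genes tested. Krt7 and Krt8 passed the filter only through their 4T1 reads and could only be called lower in TS/A. Those genes thus add nothing independent to the count or the median. Bulk libraries do not tell fewer cells with a keratin from less keratin RNA per cell. Krt7 had a log2 fold change of -11.04 ± 0.54 (SE, adjusted p = 2.71e-06) and Krt8 one of -10.62 ± 0.28 (adjusted p = 3.39e-07). Only 28 of the 11970 genes had a lower fitted log2 fold change than Krt7, and 38 had a lower one than Krt8. The Krt7 value leans on 11 reads in TS/A: it was -13.15 without empty-vector library 1 and -10.37 without library 2 of that line, and passed the threshold both times.

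The type I simple keratins differed much less. Krt18 was 2.87-fold lower in TS/A (log2 -1.52 ± 0.15 SE, adjusted p = 9.80e-05), from 453 ± 8.76 to 158 ± 13.4 CPM. Krt19 was 1.87-fold lower (log2 -0.90 ± 0.20 SE, adjusted p = 0.0065), from 69.9 ± 3.90 to 37.5 ± 9.68 CPM. For Krt19 the TS/A libraries stood at 30.6 and 44.3 CPM and the 4T1 libraries at 67.2 and 72.7 CPM, so the groups did not overlap. Per length, both genes were at 19.4 RPKM or more in the TS/A libraries in which Krt7 and Krt8 were at 0.293 RPKM or less.

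Among basal keratins, Krt14 was at 46.7 and 46.8 CPM in 4T1 and at 1.93 and 1.72 CPM in TS/A, which was 25.4-fold lower (log2 -4.67 ± 0.15 SE, adjusted p = 3.81e-07). Krt5, the type II partner of Krt14 in basal cells, had 0 reads in each 4T1 library and 2 reads in 1 TS/A library. Krt15, another type I basal keratin, had 0 reads in all 8 libraries, which allows up to 0.285 CPM in the shallowest of them. Krt14 was therefore counted in 4T1 without a detectable level of its basal partner. Krt80 was 6.53-fold lower in TS/A (log2 -2.71 ± 0.12 SE, adjusted p = 2.02e-06), from 130 and 125 to 20.1 and 19.0 CPM. Per length it was the most abundant type II member in TS/A.

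The stress keratins were low in both lines. Krt16 stood at 3.94 and 3.15 CPM in 4T1 and at 2.01 and 2.75 CPM in TS/A, a difference that did not pass the test (log2 -0.58 ± 0.28 SE, adjusted p = 0.12). Krt17 had 24 reads in the 4 libraries of 4T1 together and 9 in the 4 of TS/A, and was too low to be tested. Krt16 shares sequence with Krt14. Of the 50-base windows of the Krt16 transcript, 37.6% also occurred in transcripts of other genes, with 382 windows in Gm11597, an annotated pseudogene, and 188 in Krt14, so reads can be exchanged between these genes, depending on how the authors' counting treated them. The longest stretch that both transcripts hold lies in their coding sequences, from base 399 to 532 of the Krt14 transcript and from base 294 to 427 of the Krt16 transcript, and is shown because Krt16 in 4T1 was far below Krt14 per length.
Krt14 and Krt16: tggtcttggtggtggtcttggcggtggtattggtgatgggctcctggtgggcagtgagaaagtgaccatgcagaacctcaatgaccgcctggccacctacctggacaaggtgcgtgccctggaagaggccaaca

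With 134 identical bases, a read that lies within this stretch cannot be assigned to 1 of the genes. Krt8 had 29.7% of its windows in other genes, most of them in the pseudogene Krt8-ps. Krt18, Krt7 and Krt19 had 0.72%, 0.222% and 0% of theirs in other genes. The library kit did not mark strand, and Krt7, Krt8, Krt5 and Krt80 overlap annotated genes on the other strand. The part of such reads in the values was not tested.

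**Figure D2:**
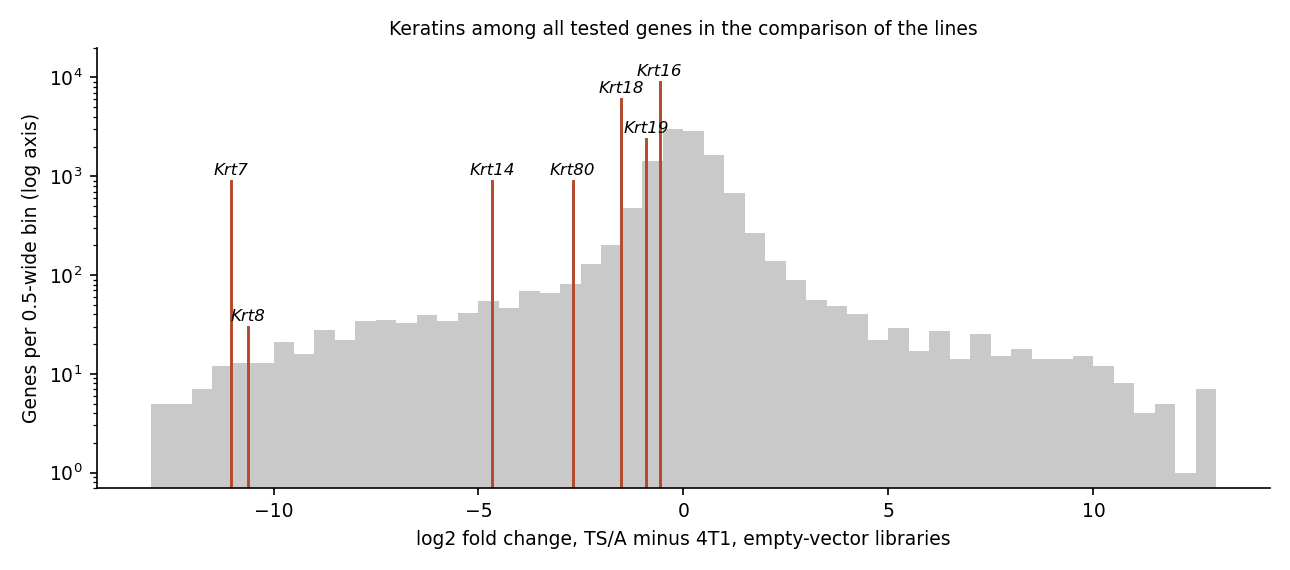
Distribution of log2 fold changes between the empty-vector libraries of TS/A and 4T1 over the 11970 tested genes, as gene counts per bin on a logarithmic axis, with the 7 tested keratins marked by lines whose height only places the name. Krt7 (-11.04) and Krt8 (-10.62) lie near the left end and Krt16 (-0.58) near the centre, and values beyond the ends of the axis are counted in the outer bins.

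In the libraries with the Gpr56 label, TS/A and 4T1 were compared in the same way, a comparison added after the values were seen. All 7 tested keratins were lower in TS/A, where 54.0% of all genes passed and 27.4% were lower. Krt7 and Krt8 again passed the filter only through 4T1 and could only be called lower in TS/A. The log2 fold changes were -11.60 for Krt7, -11.67 for Krt8, -1.74 for Krt18, -1.50 for Krt19, -6.61 for Krt14, -3.44 for Krt16 and -3.64 for Krt80. The fold for Krt14 was 97.99 here and 25.4 with the empty vector. Krt16 differed between the lines by 10.8-fold (adjusted p = 5.34e-05). The Krt7 and Krt8 values again lean on few reads: without library 1 of the label in TS/A, Krt7 had 0 reads left there and Krt8 gave -12.60, and without library 2 they gave -10.74 and -11.19.

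Summed over the 53 genes in the files that have a keratin name (28 of type I and 25 of type II), type II keratins made up 60.0% and 61.0% of the keratin level per length in empty-vector 4T1 libraries, and 58.58% and 58.55% in those with the Gpr56 vector. In TS/A they made up 5.85% and 4.31% under the empty label, and 4.32% and 2.71% under the Gpr56 label. The sums were 366.7 ± 5.20 RPKM of type I and 562 ± 8.68 RPKM of type II in 4T1 with the empty vector. In TS/A with the empty vector they were 131 ± 6.10 RPKM of type I and 6.99 ± 1.25 RPKM of type II. The 2 types stood at a ratio of type II to type I of 1.53 ± 0.045 in 4T1 and 0.0536 ± 0.012 in TS/A. With 2 libraries against 2, an exact two-sided permutation test of the ratio cannot give a p below 0.333, so this contrast is given without a p.

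**Figure D3:**
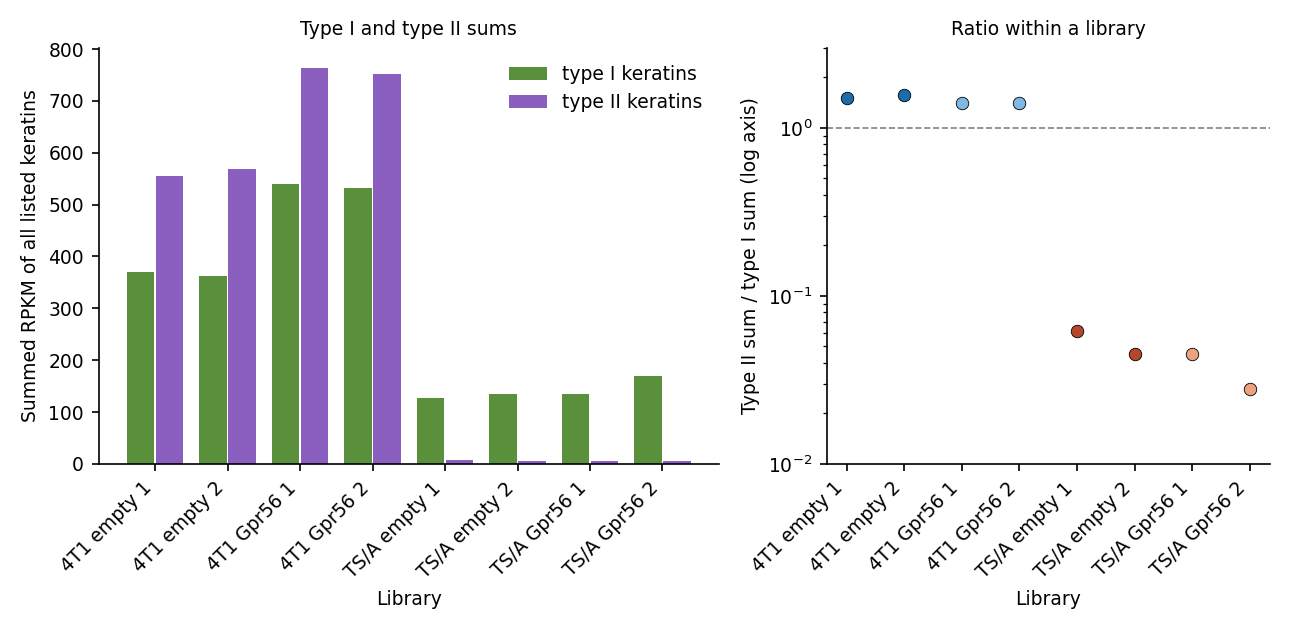
Summed RPKM of type I and type II keratins in each library, in bars that start at 0. The type II bar is above the type I bar in all 4 libraries of 4T1 and between 4.74 and 7.88 RPKM in those of TS/A, where type I stands between 127 and 170 RPKM.

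The 10 members carried between 98.0% and 99.8% of the summed keratin level in every library, so the keratins outside the set added little to either type. What little type II level TS/A had was mostly Krt80, which made up 83.1%, 91.5%, 86.5% and 93.9% of it in the 4 libraries, against 6.68% to 8.18% in 4T1. Krt18 made up between 73.8% and 81.3% of the type I level in all 8 libraries. Of a list of 44 other keratins, drawn up apart from that sum, 42 were in the files and 2 were tested. Krt76, a type II keratin of the palate and gums, was higher in TS/A (log2 5.09 ± 1.03 SE, adjusted p = 0.0060). With the empty vector it had 0 and 1 reads in 4T1 and 37 and 11 in TS/A. Krt76 passed the filter only through its TS/A reads and could only be called higher there. Krt10, a type I keratin of differentiating epidermis, had 37 and 72 reads in 4T1 and 31 and 30 in TS/A.

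Within 4T1, the values of all 7 tested keratins were higher in both Gpr56-vector libraries than in both empty-vector libraries. In this comparison 29.5% of all genes lay higher in that way. Krt19 stood at 67.2 and 72.7 CPM with the empty vector and at 151 and 130 CPM with the Gpr56 vector. Krt16 stood at 3.94 and 3.15 against 11.7 and 9.0 CPM, and Krt14 at 46.7 and 46.8 against 71.7 and 72.5 CPM. For Krt14 the SD was 0.106 and 0.533 CPM in the 2 groups. An SD of 2 libraries measures the spread poorly, and the Krt14 difference did not pass with all 8 libraries (edgeR adjusted p = 0.092). Krt80 stood at 130 and 125 against 196 and 197 CPM, Krt18 at 459 and 446 against 603 and 605 CPM, Krt7 at 553 and 542 against 829 and 748 CPM, and Krt8 at 726 and 750 against 919 and 886 CPM.

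The calls in this contrast differed between fits. With all 8 libraries in 1 fit, 0.226% of genes passed and 0 of the 7 keratins did, although 4 of them passed in DESeq2, where 2.17% of all genes did. In edgeR, 1367 of all genes had an unadjusted p under 0.05. The log2 fold changes were 1.55 ± 0.27 (SE, adjusted p = 0.086) for Krt16, 1.01 ± 0.20 (adjusted p = 0.10) for Krt19 and 0.62 ± 0.12 (adjusted p = 0.092) for both Krt14 and Krt80. They were 0.53 ± 0.31 for Krt7, 0.42 ± 0.14 for Krt18 and 0.29 ± 0.16 for Krt8, with adjusted p-values of 0.60, 0.30 and 0.59. Their median was 0.62, against 0.00 over all genes tested.

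With the 4 libraries of 4T1 fitted alone, 22.8% of 11361 genes passed the test, and all 7 keratins rose, as did 11.5% of those genes. The changes were 1.57 ± 0.20 for Krt16 (adjusted p = 7.12e-05), 1.01 ± 0.07 for Krt19 (adjusted p = 2.68e-07) and 0.62 for both Krt80 (adjusted p = 2.39e-06) and Krt14 (adjusted p = 1.06e-05). Krt7 rose by 0.53 ± 0.06 (adjusted p = 1.48e-05), Krt18 by 0.42 ± 0.05 (adjusted p = 4.60e-05) and Krt8 by 0.29 ± 0.05 (adjusted p = 8.82e-04). As folds the rises ran from 1.22 for Krt8 to 2.97 for Krt16. The biological coefficient of variation was 5.47% in that fit and 14.7% with all 8 libraries. In the fit of all libraries without TS/A empty-vector library 1 or without library 2, 7 of 8 tested keratins passed each time, as did 10.5% and 10.3% of all genes. Type I and type II members rose together, and the type II share of the keratin level was 60.5% ± 0.71 with the empty vector and 58.6% ± 0.02 with the Gpr56 vector (SD, n = 2).

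**Figure D4:**
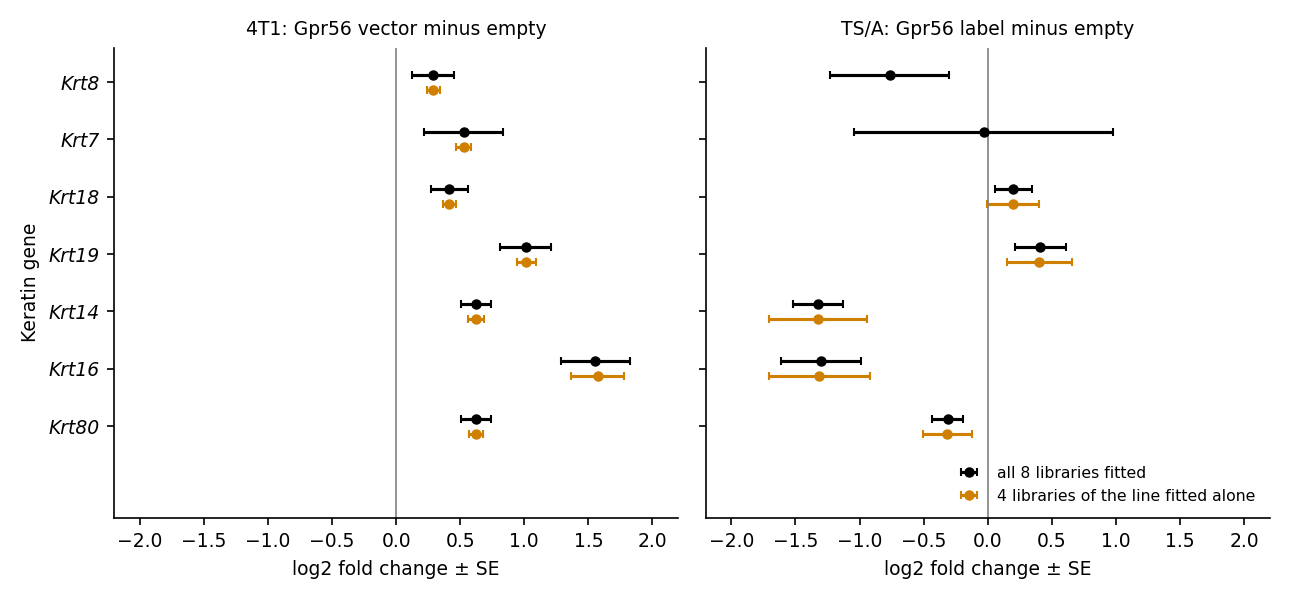
Log2 fold change of each tested keratin between the Gpr56 and the empty vector label in 4T1 (left) and TS/A (right), as the fitted value with bars of 1 standard error, from the fit of all 8 libraries and from that of 1 line alone. All 7 values lie above 0 in 4T1, and Krt14 (-1.32), Krt16 (-1.30), Krt8 (-0.76), Krt80 (-0.31) and Krt7 (-0.03) lie below 0 in TS/A, where Krt7 and Krt8 were too low for the fit of 1 line.

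Within TS/A, 0.00835% of genes passed the test between the Gpr56 label and the empty vector and 0 of the 7 keratins did, with 416 genes at an unadjusted p under 0.05 and 0 keratins past the threshold in DESeq2, where 10 genes in all were. Krt14 stood at 1.93 and 1.72 CPM with the empty vector and at 0.762 and 0.692 CPM with the Gpr56 label (log2 -1.32 ± 0.19 SE, adjusted p = 0.49). Krt16 stood at 2.01 and 2.75 against 1.07 and 0.831 CPM (log2 -1.30 ± 0.31 SE, adjusted p = 1). Krt80 stood at 20.1 and 19.0 against 16.9 and 14.5 CPM (log2 -0.31 ± 0.12 SE, adjusted p = 1). These were the 3 tested keratins whose groups did not overlap, all lower with the label, where 10.4% of all genes were lower in that way. Krt18 at 148 and 167 against 158 and 204 CPM, and Krt19 at 30.6 and 44.3 against 43.8 and 55.7 CPM, overlapped, as did Krt7 and Krt8 on their few reads. Without TS/A empty-vector library 2, when 23.9% of all genes passed, 3 keratins did, namely Krt14 (-1.39, adjusted p = 0.0034), Krt80 (-0.35, adjusted p = 0.042) and Krt19 (0.70, adjusted p = 0.0063). Without library 1, when 1.84% of all genes passed, Krt14 was the only keratin that did (-1.23, adjusted p = 0.048).

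The difference between the 2 vector contrasts (TS/A minus 4T1) was tested in the same fit and passed for 0.0668% of all genes, 0.0501% in the lower direction. Krt14 was 1 of them, with a log2 difference of -1.95 ± 0.23 (SE, adjusted p = 0.037). Its value was higher with the Gpr56 label in 2 of 2 libraries of 4T1 and lower in 2 of 2 of TS/A. That call was lost without any 1 of the 4T1 libraries or of the TS/A libraries labelled Gpr56, with adjusted p-values between 0.24 and 0.36, and it stood without either TS/A empty-vector library. It was also lost when libraries were scaled by their totals alone (adjusted p = 0.060) and with limma-voom (adjusted p = 0.32). Krt16 had a larger difference with a wider error (-2.86 ± 0.41 SE, adjusted p = 0.13), and Krt80 one of -0.94 ± 0.17 (adjusted p = 0.23). For Krt18 and Krt19 the differences were -0.22 ± 0.20 and -0.60 ± 0.28, and neither passed. Krt7 (-0.56 ± 1.08) and Krt8 (-1.05 ± 0.49) were too low in TS/A for a narrow estimate.

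Genes that work with keratins were taken from lists of fixed membership, chosen with earlier results of these data known. The list called keratin linkers held 13 genes of junction, linker and other keratin-binding proteins, and all were tested. With the empty vector, 10 of them were lower in TS/A, where 23.5% of all genes were lower. Their median log2 fold change was -1.10. In the fit of the 4 empty-vector libraries alone, 6 of the 13 were lower, as were 16.2% of all genes. Those lower in both fits included Jup (plakoglobin, -6.34 ± 0.28 SE, adjusted p = 1.82e-06), Sfn (14-3-3 sigma, a keratin-binding adaptor, -7.30 ± 0.46, adjusted p = 9.36e-06) and Evpl (envoplakin, -3.53 ± 0.36, adjusted p = 1.35e-04). Reads in the empty-vector TS/A libraries were few for Jup (20 and 6), Sfn (27 and 2) and Evpl (13 and 7). Jup and Evpl passed the filter only through their 4T1 reads and could only be called lower. Both thus add nothing independent to the counts or the median. The same held for Sfn in the fit of the 4 empty-vector libraries alone. Of 16 other intermediate filament genes, 7 were tested and 1 was lower, the lamin gene Lmnb2 (-0.75 ± 0.14 SE, adjusted p = 0.0033). Vim, which encodes the vimentin filaments of mesenchymal cells, was at 2311 ± 64.9 CPM in 4T1 and 2442 ± 605 CPM in TS/A with the empty vector. That difference did not pass (log2 0.08 ± 0.18 SE, adjusted p = 0.74). With the Gpr56 label Vim was higher in TS/A (log2 0.49 ± 0.18 SE, adjusted p = 0.047), where 54.0% of all genes passed. Of 22 transcription factors linked to keratin genes, 19 were tested, and 11 were lower and 2 higher in TS/A. Of all genes, 23.5% were lower and 47.4% passed in either direction. With the 4 empty-vector libraries alone, 9 of 18 factors were lower and 0 higher, and 31.9% of all genes passed in either direction. In both fits, Ehf, Grhl2, Ovol2 and Tfap2c passed the filter only through 4T1 and could only be called lower. The same held for Grhl3 in the fit of all 8 libraries. Those factors add nothing independent to the counts. Among those lower, Grhl2, a grainyhead factor of epithelial genes, had a log2 fold change of -7.88 ± 0.43 (SE, adjusted p = 4.34e-06), Ehf one of -5.71 ± 0.54 (adjusted p = 1.77e-04) and Ovol1 one of -2.57 ± 0.27 (adjusted p = 1.62e-04). Grhl2 had 8 and 0 reads and Ehf 9 and 0 in the empty-vector TS/A libraries, so both values lean on few reads. Ovol1 had 31 and 15 there. Nfe2l2, the regulator of the oxidative stress response, was higher (0.58 ± 0.16, adjusted p = 0.017), as was Cebpb (0.73 ± 0.24, adjusted p = 0.037). Both calls were lost with the 4 empty-vector libraries alone (adjusted p = 0.058 for Nfe2l2 and 0.13 for Cebpb). With the Gpr56 label, Nfe2l2 had a log2 fold change of 0.42 (adjusted p = 0.053) and Cebpb one of -0.23 (adjusted p = 0.43).

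In the vector contrasts with all 8 libraries, 0 members of these lists passed in either line, and unadjusted counts over all genes are those given above. With 4T1 fitted alone, where 11.5% of all genes rose and 22.8% passed in either direction, 8 of 13 linkers rose, among them Ppl (periplakin, 1.08), Jup (0.996) and Sfn (0.76), with a median of 0.41 over the list. Of the regulators 9 of 19 rose, with Ehf at 1.30, Ovol1 at 0.95 and Elf3 at 0.75. Of the other filament genes, Lmnb2 rose by 0.21, and Vim and Nes, the nestin gene, had log2 changes of -0.58 and -0.51 that also passed. In the fit of 4T1 alone, keratin RNA was therefore higher in the same libraries in which vimentin RNA was lower.

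Markers of the cell types a mammary tumour can hold were summed in plain CPM, and single genes among them are given in CPM with TMM factors. The 6 epithelial markers, Epcam, Cdh1 and the claudins among them, summed to 493 and 473 CPM in 4T1 with the empty vector, 821 and 876 CPM with the Gpr56 vector, and between 0.204 and 0.462 CPM in TS/A. The TS/A libraries, from a line labelled as breast cancer, thus were near 0 for general epithelial markers while Krt18 stood at 148 CPM or more and Krt19 at 30.6 CPM or more. The 8 luminal markers summed to between 102 and 136 CPM in 4T1 and between 143 and 181 CPM in TS/A, with Prlr and Kit at 0 in all libraries. The higher sum in TS/A was that of Areg, an EGF receptor ligand, at 58.7 ± 2.22 CPM in 4T1 and 144 ± 7.31 CPM in TS/A with the empty vector. Gata3, a luminal transcription factor, went the other way, from 38.5 ± 0.15 to 4.87 ± 3.08 CPM (log2 -2.95 ± 0.37 SE, adjusted p = 3.95e-04). The 7 myoepithelial markers stayed between 2.47 and 5.92 CPM in all 8 libraries. The 9 fibroblast markers summed to between 8.64 and 15.4 CPM in 4T1 and between 141 and 354 CPM in TS/A, with Lum, Fap and Thy1 at 0 throughout. Col1a1, a collagen I chain, carried most of the TS/A sum, at 1.74 ± 0.004 CPM in 4T1 and 225 ± 122 CPM in TS/A with the empty vector. Pdgfrb was also higher in TS/A with the empty vector (log2 6.06 ± 1.09 SE, adjusted p = 0.0036). It had 0 and 3 reads in 4T1 and 218 and 36 in TS/A. Pdgfrb thus passed the filter only through TS/A and could only be called higher there. Pdgfra stood at 13.3 ± 0.01 CPM in 4T1 and 11.7 ± 4.67 CPM in TS/A with the empty vector. Col1a2, Col3a1 and Dcn were at 0.394 CPM or less in all libraries. Immune markers (9, with Cd3e and Adgre1 among those at 0) summed to between 7.14 and 19.6 CPM, mostly Cd68 and Cd74. In 4T1, Cd68 stood at 6.61 ± 0.04 CPM with the empty vector and 15.4 ± 2.80 CPM with the Gpr56 vector. Cd74 stood at 6.20 ± 0.81 and 1.83 ± 0.46 CPM there, in that order. Endothelial markers (6, with Cldn5 at 0) summed to 0.897 CPM or less. The part of other cells in the keratin differences was not tested.

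For each tested keratin, the gene most like it in pattern was the one of 8735 other genes, all with a mean of at least 10 CPM, at the smallest Euclidean distance of centred log2 CPM over the 8 libraries. The 8 libraries are of only 2 lines, so the distances are a description and carry no test. Cdh1, the E-cadherin gene, was nearest both to Krt8 (distance 1.18) and to Krt7 (1.41), where the median distances over all genes were 15.5 and 16.2. Cdh1 stood at 283, 267, 405 and 428 CPM in the 4T1 libraries and at most at 0.190 CPM in TS/A. Rgs16 was nearest to Krt18 (0.281, median 2.44), B3gnt3 to Krt19 (0.630, median 2.18) and Fam213a to Krt80 (0.328, median 4.56). Shroom2 was nearest to Krt14 (0.942, median 7.94) and Rdh10 to Krt16 (1.33, median 3.45). Krt7 and Krt8 thus shared their nearest gene, while Krt18 and Krt19 each had another. Such distances mostly follow the size of the gap between the lines given above, so the shared gene adds no separate evidence.

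Only Krt7 and Krt80 had more than 1 transcript in the files. The main Krt7 transcript, ENSMUST00000068904, held between 91.3% and 93.8% of the Krt7 reads in 4T1. The main Krt80 transcript, ENSMUST00000077196, held between 98.0% and 100% of the Krt80 reads in the 8 libraries. A further Krt80 transcript, ENSMUST00000230909, had 26 and 30 reads in the empty-vector 4T1 libraries and 0 in each of the other 6 libraries. It made up 1.13% and 1.12% of the Krt80 reads where it was seen, and no test was run on it.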

How the data were processed

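The 8 deposited tables, 1 per library, listed 65042 transcripts each with total gene reads and RPKM, per the file headers. RNA came from an RNeasy Mini Kit preparation and libraries from the TruSeq RNA kit v2, per the labels' protocols, and that kit is unstranded. The authors' aligner, counting tool and genome build were not stated in the sources at hand. Per the file headers, the deposited counts are whole-number reads per transcript. The deposited RPKM equalled reads divided by transcript length and 1 factor per library, within 1%, for 98.8% to 98.9% of transcripts with at least 21 reads. RPKM was used for levels of different genes within a library, given singly or as means over libraries. The sums of type I and type II keratins are also shown for both lines in RPKM, without TMM factors.

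Counts were summed over transcripts of the same name, after the trailing number was removed, to 22026 genes, 15815 with any read. Annotation came from GENCODE M21, which held 65023 of the 65042 transcripts. Tests used edgeR 4.0.16 (R 4.3.3): filterByExpr on the 4 groups, TMM, glmQLFit and glmQLFTest on all 8 libraries, Benjamini-Hochberg over 11970 genes, threshold 0.05, no fold limit. Groups follow the vector in the sample characteristics. Alternatives were other scalings, DESeq2 1.42.0, limma-voom (limma 3.58.1), other filters, fits of 4 libraries alone, each library left out, and the replicate number as a block. The steps were tested on simulated data.

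The members, the gene lists and the rule for named genes were chosen with earlier results of these data known. All 10 members are described; of each other list, up to 3 members with the smallest p in each direction are named, or the 2 most abundant where none passed. Vim, the single genes named from the marker lists (Cdh1 among them), the Krt80 transcripts and the cell type sums were singled out beyond that rule. Replicates differed by more than sampling noise in all 4 groups (a chi-square of 3.58, 5.39, 118 and 17.4 for each degree of freedom), so none was treated as a repeat deposit of 1 library. Whether the cultures were separate cannot be read from this.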

Additional observations from a re-analysis of the deposited data

Results flagged for a closer look

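The effect of the vector label on Krt14 differed between the lines by a log2 value of -1.95 (SE 0.23, edgeR adjusted p = 0.037), higher with the label in 4T1 and lower in TS/A, on 15 to 47 reads per library in TS/A. This call passed in 7 of 15 alternatives, with adjusted p-values up to 0.36: it was lost with library totals, with limma-voom and without any 1 of 6 libraries. For Adgrg1, the gene carried by the vector, the difference was -5.67 (SE 0.55, edgeR adjusted p = 0.020): its level was 35.8-fold higher with the Gpr56 vector in 4T1 (log2 5.16) and not higher in TS/A (log2 -0.51, adjusted p = 1). The Adgrg1 call passed in 8 of 15 alternatives, with adjusted p-values up to 0.27, and was lost with limma-voom and without any 1 of the same 6 libraries, which are all but the TS/A empty-vector ones.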

How the results depend on the processing

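With the empty vector, 6 of 7 tested keratins were lower in TS/A in all 16 alternatives, and Krt16 passed in none of the 15 that tested it. The vector contrasts depended more on the processing. In 4T1, where 0 keratins passed with all 8 libraries in edgeR, 4 passed with DESeq2, 1 with limma-voom, 4 without a filter on low counts and 7 with 4T1 fitted alone. Leaving out 1 library at a time gave between 0 and 7, with 7 only without either TS/A empty-vector library. With 4T1 alone, 7 passed without each library in turn. In TS/A, where 0 passed, leaving out 1 library gave between 0 and 3, and between 0 and 1 with TS/A fitted alone. For the difference between the vector contrasts, where 1 passed, the count was 0 with library totals and with limma-voom, 3 with DESeq2 and 2 without a filter. Leaving out 1 library gave between 0 and 4. The cause of these changes was not tested.

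Over all genes, the count in 4T1 was 27 in the main comparison, 260 with DESeq2, 57 with limma-voom, 266 without a filter and 2588 with 4T1 alone. Single keratins changed sign only where reads were few: Krt7 in TS/A, -0.03 with all libraries, ranged from -5.33 to 2.09 when 1 library was left out (from -0.72 to 0.89 with TS/A alone), with 2.09 without empty-vector library 1 and 0.83 without Gpr56-labelled library 2. Its difference between the vector contrasts, -0.56, ranged from -5.86 to 1.57, with 0.31 without Gpr56-labelled library 2. Adgrg1 in TS/A, -0.51, ranged from -0.95 to 0.15, and from -0.93 to 0.14 with TS/A alone, and was above 0 only without empty-vector library 1. A library left as the only one of its group in such fits was assumed to vary like the other groups.

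The labels give no shared batch for a replicate number, so the numbers were not used to pair samples. The correlation of deviations between same-numbered libraries was -0.02 between the 4T1 groups and 0.31 between the TS/A groups. With the replicate number as a block, 3 keratins passed in 4T1, 7 with 4T1 alone, 0 in TS/A, 0 with TS/A alone, and 2 in the difference between the vector contrasts. Depth limits Krt5, Krt15, Krt17 and, in TS/A, Krt7 and Krt8, which had 14 reads or fewer in each library.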
